A study of Mus musculus with 5 samples.

Results

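The synaptotagmins followed here were Syt1, Syt2, Syt3, Syt4, Syt5, Syt6, Syt7, Syt11, Syt12 and Syt17, taken by gene symbol from the deposited count tables, 10 of 55385 genes. Hippocampal total RNA came from male C57/bl6 mice aged 3 months. One group was untreated, and the others had received 20 mg/kg kainic acid, a glutamate receptor agonist that evokes seizures, by intraperitoneal injection and were taken 1, 4 or 8 h after the seizures had begun. The control, 1 h and 8 h groups had 1 library each and the 4 h group had 2, called replicate 1 and replicate 2 below. Nothing in the labels says whether the 4 h pair came from separate animals, so the p-values measure only the spread between those libraries. The depth was 19100374 gene-assigned reads for the control library, 17744508 for 1 h, 18250114 and 19109204 for the 4 h replicates and 16612225 for 8 h.

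Synaptotagmins are membrane proteins with tandem C2 domains, and in several of them these domains bind calcium and couple its entry to the fusion of vesicles. Syt1 and Syt2 are the fast calcium sensors of transmitter release, Syt3 and Syt7 bind calcium with higher affinity and serve slower forms of release and membrane traffic, and Syt4, Syt11, Syt12 and Syt17 bind calcium poorly or not at all. Syt4 is known as a gene whose mRNA is induced by neuronal activity.

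The 4 h libraries stood apart from each other, which bears on every 4 h value. It also bears on the standard errors (SE) and p-values at 1 h and 8 h, which rest on the spread of this pair. All 4 thalamus markers were higher in replicate 1 than in the other libraries. Their summed level was 65.7 normalized CPM (read counts scaled to library size with factors from the trimmed mean of M values) in the control, 76.6 at 1 h, 328 and 131 in the 4 h pair and 57.5 by 8 h, with Slc17a6 the most abundant in the control. Prkcd, a kinase abundant in thalamic neurons, read 27.0 normalized CPM in the control, 199 in 4 h replicate 1 and 79.0 in replicate 2. The 4 choroid plexus markers were lowest in replicate 1, with a summed level of 3932 in the control, 1662 at 1 h, 26.4 in 4 h replicate 1, 4176 in replicate 2 and 3032 at 8 h. Ttr, the most abundant of them, read 3747 in the control and 16.3 in 4 h replicate 1, while Folr1 and Kcnj13 read 0.416 and 0.356 there. The 8 activity-induced reference genes were also uneven: their summed level was 509 in the control, 6520 at 1 h, 8694 and 2979 in the 4 h pair and 677 by 8 h, and Fos read 519 in replicate 1 and 70.4 in replicate 2. Over the 11882 genes with a mean of at least 5 normalized CPM, the median absolute log2 ratio between the 4 h libraries was 0.18 and the 95th percentile was 0.88.

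The summed levels of the other cell type lists differed less between libraries, though single genes within them did not always. GABAergic markers summed to 512 normalized CPM in the control and to 843 and 694 at 4 h, astrocyte markers to 922, 1520 and 1355, and oligodendrocyte markers to 2581, 2980 and 3807. Excitatory neuron markers summed to 2309 in the control, 1847 and 2078 in the 4 h pair and 2126 by 8 h. This sum covers wider differences in its less abundant genes: Neurod6 read 144 in the control, 60.9 and 67.1 in the 4 h pair and 104 by 8 h (4 h log2 fold change -1.17, SE 0.16, edgeR adjusted p = 0.242 after Benjamini-Hochberg adjustment), and Neurod2 read 71.0, 43.4, 76.4 and 140. Microglial markers stood at 172 in the control, 154 and 153 in the 4 h pair and 161 by 8 h, and endothelial markers at 67.3, 107, 63.6 and 80.7. Within the glial lists, Gfap had 2.70 and 2.31 times the control level in the 4 h pair and 2.66 by 8 h, and P2ry12 had ratios of 0.436, 0.558 and 0.652. Their list members did not all follow. Slc1a3, Aqp4 and Aldh1l1 had log2 fold changes of 0.26, 0.55 and 0.46 at 4 h and 0.18, -0.05 and 0.06 at 8 h. Among microglial markers, the 4 h and 8 h values were 0.41 and 0.32 for C1qa, -0.38 and 0.19 for Cx3cr1, and -0.05 and -0.19 for Csf1r. CA1 pyramidal markers summed to 238 in the control and 164 and 199 at 4 h, and dentate granule markers to 264, 276 and 217. The dentate sum joined genes that lay on both sides of the control at 4 h: Dsp read 72.2 in the control and 4.34 and 13.6 in the 4 h pair, C1ql2 29.3 and then 11.05 and 11.7, and Prox1 60.0 and then 172 and 120. In whole tissue, fewer cells of a type and less RNA per cell cannot be told apart.

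Every one of the 10 synaptotagmins was detected in all 5 libraries and passed the filter on low counts. Levels were compared between genes as normalized CPM per kilobase of annotated exon. In the control, Syt1 came first with 158 per kb and Syt11 next with 116, followed by Syt4 with 43.2, Syt5 with 33.1 and Syt7 with 30.2. Syt3 with 16.5, Syt17 with 10.8, Syt12 with 5.52 and Syt2 with 4.204 came after these, and Syt6 was last with 0.776. The neighbours Syt5 and Syt7 differed by 1.09-fold, and with 1 control library no spread between animals was available for any step of this order. Dividing by the longest annotated transcript instead put Syt5 (45.0) above Syt4 (43.2) and moved Syt1 to 273, Syt17 to 19.1 and Syt12 to 8.54, so the order of Syt4 and Syt5 depended on the length used. In 4 h replicate 1 Syt4 read 177 per kb on either length. This was above Syt1 by exon length (146) but below it by transcript length (252), an alternative chosen after seeing the data. In replicate 2 Syt4 came after Syt1 and Syt11 with 56.5 on both scales. Syt12 stood eighth in the control and sixth at 8 h, when it read 11.7 per kb.

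**Figure D1:**
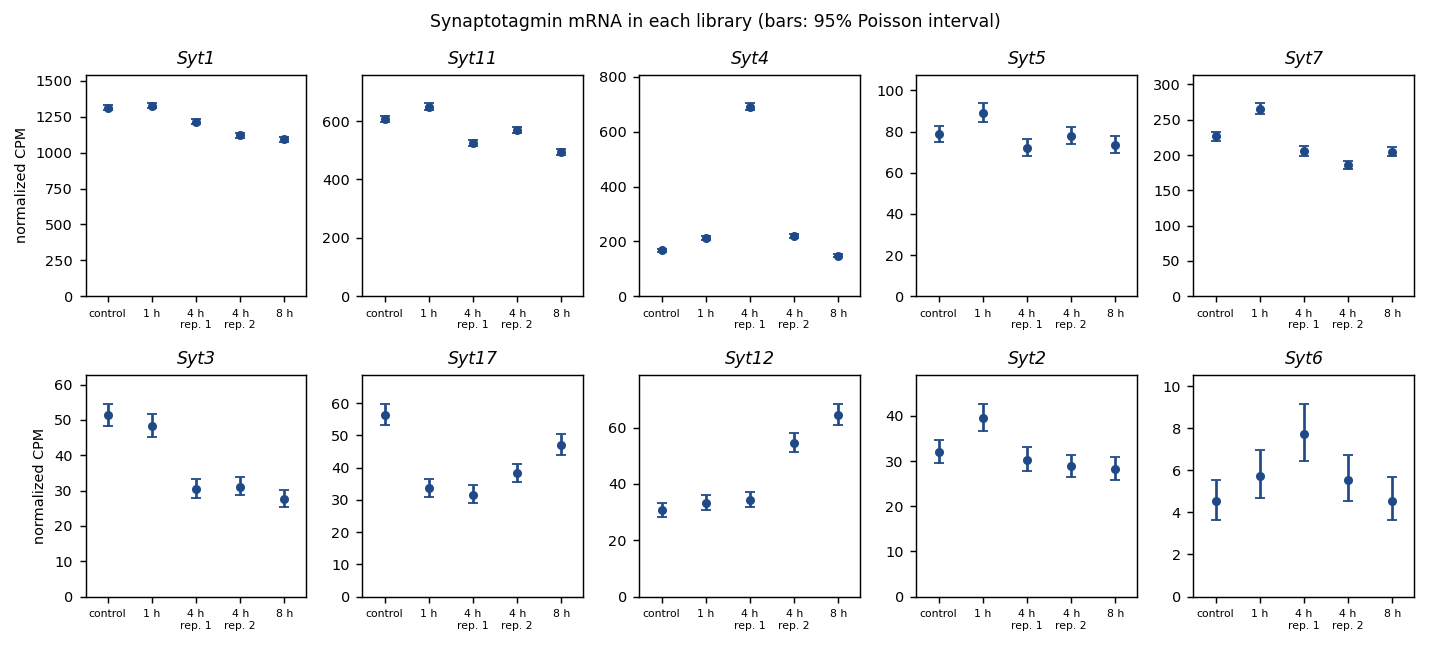
Normalized CPM (y axis, from 0, own scale per gene) of the 10 synaptotagmins in the 5 libraries (x axis), with bars for 95% Poisson intervals, which cover counting error only. Syt4 reads 691 in 4 h replicate 1 and between 148 and 220 in the other libraries, while Syt3 is lower in both 4 h libraries and at 8 h than in the control and at 1 h.

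Whether the kainic acid groups differed from the control was first asked with edgeR's quasi-likelihood test over 19768 genes. In it all groups shared the spread of the 4 h pair and all 3 comparisons shared the 1 control library. The test had little reach: it left the activity-induced reference genes uncalled at every time, though Fos had a log2 fold change of 6.52 at 1 h. A gene that was not called may therefore still have changed. At an adjusted p under 0.05 (Benjamini-Hochberg), the test called 0 of the 10 synaptotagmins at 1 h, against 0% of all genes, 0 of 10 at 4 h, against 0.00506%, and 0 of 10 by 8 h, against 0%. The 1 gene called, named after its values were seen, was ETV3L at 4 h (log2 fold change 8.41, SE 0.47, edgeR adjusted p = 0.0366). At an unadjusted p under 0.05, 478, 2291 and 892 genes passed at 1, 4 and 8 h, among them 1, 2 and 2 synaptotagmins. DESeq2 called 56, 238 and 33 genes and limma 0, 0 and 0, with 0 synaptotagmins in either. Without the filter on low counts, edgeR called 1300 of 32732 genes at 4 h (3.97%), Syt4 and Syt3 among them, and 279 at 8 h (0.852%), Syt12 among them.

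As a measure of size, genes at least 1.5-fold from the control were counted, at 4 h in both libraries. At 1 h, 0 of 10 synaptotagmins were higher by that limit, against 10.6% of all genes, and 1 (Syt17) was lower, against 8.82%. At 4 h, 0 were higher, against 9.8%, and 1 (Syt3) was lower, against 6.23%. At 8 h, 1 (Syt12) was higher, against 13.9%, and 1 (Syt3) was lower, against 8.69%. With 10 genes, these counts lay near the shares of all genes. With libraries scaled by size alone the balance of higher and lower genes turned, with 9.0% higher and 10.5% lower at 1 h and 8.04% and 9.03% in the 4 h comparison. The median log2 fold change of the synaptotagmins was 0.15, -0.13 and -0.18 at 1, 4 and 8 h, beside -0.01, 0.01 and 0.01 for all genes tested. Without 4 h replicate 1, Syt12 was counted as higher at 4 h, against 13.5% of all genes, and Syt3 as lower, against 10.5%. Without replicate 2, Syt4 and Syt6 were counted as higher, against 20.97%, and Syt17 and Syt3 as lower, against 16.5%.

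Among the fast calcium sensors, Syt1 read 1314 normalized CPM in the control, 1326 at 1 h, 1216 and 1121 in the 4 h libraries and 1092 at 8 h. The 1 h library lay within 1% of the control, and the 3 later libraries were lower than both. The ratio to the control was 0.831 at 8 h (95% interval 0.816 to 0.847 from the counts alone), and the log2 fold change of -0.27 had an SE of 0.19 (edgeR adjusted p = 1.00 after Benjamini-Hochberg adjustment). The sign of the Syt1 value at 1 h, 0.01 on the log2 scale, turned to -0.06 when libraries were scaled by size alone. Syt2 read 32.1 in the control, 39.7 at 1 h, 30.3 and 28.9 in the 4 h pair and 28.4 by 8 h. Only the 1 h library was above the control, by 1.24-fold (1.11 to 1.38), and the 4 h intervals, 0.838 to 1.06 and 0.801 to 1.01, included 1, while the 8 h interval, 0.784 to 0.994, lay below it. Syt5 read 78.7 in the control, 89.2 at 1 h, 72.0 and 78.0 in the 4 h pair and 73.6 by 8 h, which spans ratios of 0.915 to 1.13 to the control.

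Syt3, which binds calcium with high affinity, read 51.4 normalized CPM in the control, 48.2 at 1 h, 30.5 and 31.1 in the 4 h pair and 27.7 by 8 h. The control and 1 h libraries read higher than the 3 later ones, a grouping made after the values were seen. How many of all genes split in this way was not counted. A difference between the 4 h replicates was not detectable at this depth (ratio 0.980, 95% interval 0.869 to 1.11). The log2 fold change was -0.09 after 1 h (SE 0.23), -0.73 after 4 h (SE 0.19) and -0.89 after 8 h (SE 0.23). The unadjusted p was 0.0103 for 4 h and 0.00976 for 8 h. Neither passed after Benjamini-Hochberg adjustment in edgeR (adjusted p = 0.327 and 0.946). The 4 h value was -0.72 without replicate 1 and -0.75 without replicate 2. Cell type markers also stood away from the control in these libraries. In the 4 h pair thalamus markers were above it, while Neurod6 (ratios 0.422 and 0.465), Fibcd1 (0.523 and 0.698), Dsp and C1ql2 were below it. Members of the same neuronal lists did not all follow: Prox1 (2.86 and 1.99) was above the control. Neurod2 (0.611 and 1.08) and Wfs1 (0.906 and 1.05) lay on both sides of it. By 8 h the thalamus sum was at 0.875 of the control, Neurod6 at 0.722 and Fibcd1 at 0.741. Other neuronal markers lay above the control there, with C1ql2 at 1.98, Neurod2 at 1.97 and Prox1 at 1.28, and Dsp was at 0.949. The part of these differences in the Syt3 values was not tested.

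Promoter windows of Syt3, lower at 4 and 8 h, and of Syt1, the most abundant member, are shown because their levels lay at unlike distances from the control. RefSeq windows were found for 5 of the 10 synaptotagmins. Each run below is the 250 bases before a RefSeq start, read 5′ to 3′ on the gene's strand in GRCm38.p6: chr7:44383876-44384125 on the plus strand for Syt3 and chr10:109010976-109011225 on the minus strand for Syt1. The 3′ end of each window reaches past the gene start given by GENCODE M21.
Syt3: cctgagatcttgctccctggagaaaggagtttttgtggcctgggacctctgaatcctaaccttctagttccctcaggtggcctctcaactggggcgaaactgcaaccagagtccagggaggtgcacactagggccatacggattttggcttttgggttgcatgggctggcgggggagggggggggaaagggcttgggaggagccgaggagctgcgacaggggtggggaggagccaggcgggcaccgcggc
Syt1: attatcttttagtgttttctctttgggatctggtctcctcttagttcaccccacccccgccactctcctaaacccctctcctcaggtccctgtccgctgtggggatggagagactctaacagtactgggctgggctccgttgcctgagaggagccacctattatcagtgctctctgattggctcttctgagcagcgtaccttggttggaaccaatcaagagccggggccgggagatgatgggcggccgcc
Both strands were searched for the cAMP response element TGACGTCA, its part TGACG, the AP-1 motif TGANTCA, the EGR motif GCGNGGGCG and the E-box CACGTG, and by name for MEF2 and the SRF CArG box. No match was found in either window, which therefore holds no capitals. A second Syt1 window, with 42.8% guanine and cytosine, and the Syt11 window held none either. Of the windows not printed, 1 of 2 for Syt2 held TGACG and the other TGANTCA, and 2 of 3 for Syt6, which overlap, held the same CACGTG. Of 32851 such windows, 1.55% held TGACGTCA, 17.8% TGACG, 6.75% TGANTCA, 4.70% GCGNGGGCG, 6.02% CACGTG, 2.92% MEF2 and 1.47% the CArG box, and every window with TGACGTCA also counts for TGACG. The guanine and cytosine share was 62.4% for Syt3 and 56.4% for the Syt1 window printed.

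Syt7, the high-affinity sensor of asynchronous release, read 226 normalized CPM in the control, 265 at 1 h, 206 and 186 in the 4 h pair and 205 by 8 h. The 1 h library was the highest and all later ones were below the control, with ratios of 1.17 at 1 h (95% interval 1.12 to 1.22) and 0.905 at 8 h (0.866 to 0.946). Syt6, the rarest member, had 90 counts in the control, 101 at 1 h, 130 and 105 in the 4 h pair and 80 by 8 h. Its ratio to the control was 1.71 in 4 h replicate 1 (1.295 to 2.26), and the intervals of the other 3 libraries included 1. At 8 h the Syt6 ratio was 1.01, and its log2 fold change of 0.01 turned negative without the filter on low counts. Genes on the other strand overlap 8.67% of the Syt6 exons and 5.13% of the Syt7 exons.

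Syt4 read 168 normalized CPM in the control, 211 at 1 h, 691 and 220 in 4 h replicates 1 and 2 and 148 at 8 h. A single library was high: replicate 1 had 4.11 times the control level (95% interval 3.95 to 4.27), replicate 2 had 1.31 times (1.2501 to 1.37), and the pair differed by 3.14-fold (3.03 to 3.25). At 1 h the ratio was 1.26 (1.20 to 1.32) and at 8 h 0.881 (0.837 to 0.928). The log2 fold change at 4 h was 1.44 with an SE of 0.66 (edgeR adjusted p = 0.476 after Benjamini-Hochberg adjustment). It was 0.39 without replicate 1 and 2.04 without replicate 2. Thalamus markers, whose summed ratio to the control was 5.0 in replicate 1 and 1.99 in replicate 2, and the activity-induced genes, at 17.1 and 5.85, were uneven in the same direction, and their part in the Syt4 value was not tested. Of the Syt4 exons, 14.5% are overlapped on the other strand by Gm26658, which had between 3 and 10 counts a library. The strand setting of the counting was not given in the sources used here.

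**Figure D2:**
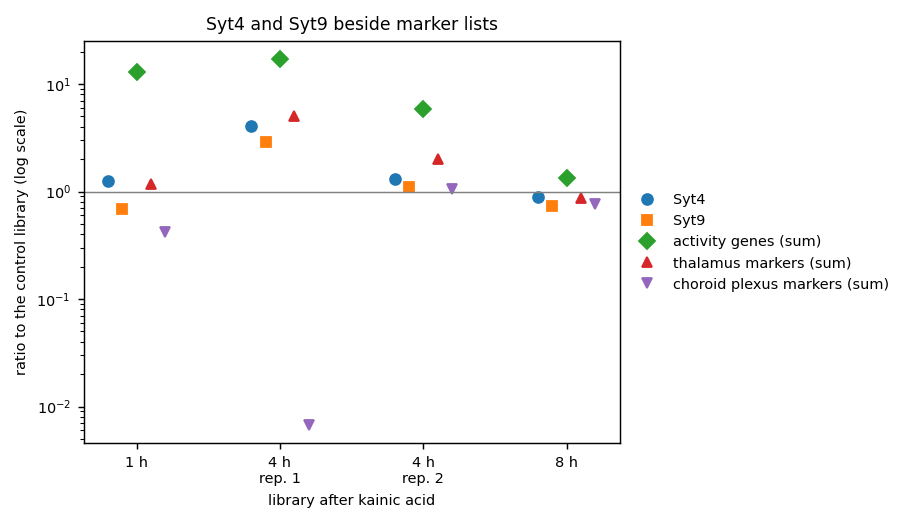
Ratio to the control library (log axis) of Syt4, Syt9 and the summed levels of 3 gene lists in the 4 kainic acid libraries. In 4 h replicate 1 Syt4 is at 4.11, Syt9 at 2.87 and the thalamus markers at 5.0, against 1.31, 1.11 and 1.99 in replicate 2.

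Over the 4 kainic acid libraries, the genes whose log2 ratios to the control lay closest to those of Syt4, among 10267 compared, were Mctp2, Slc17a6, Adamts9, Pdp1 and Rras2. The root mean square difference from Syt4 was 0.17, 0.22, 0.23, 0.23 and 0.24 in that order, beside a median of 1.09 over the genes compared. Mctp2, which encodes another protein with C2 domains, read 3.77 normalized CPM in the control, 5.29 at 1 h, 17.6 and 5.87 in the 4 h pair and 3.59 by 8 h. Genes were compared if they reached 10 normalized CPM in any library. Mctp2 did so only in 4 h replicate 1, the library in which Syt4 itself was high. The likeness therefore gives no support apart from that library. Slc17a6, the vesicular glutamate transporter abundant in thalamus and 1 of the 4 thalamus markers, read 32.7, 41.4, 99.4, 42.6 and 29.4.

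Syt11, a relative of Syt4 with impaired calcium binding, read 606 normalized CPM in the control, 648 at 1 h, 525 and 569 in the 4 h pair and 494 by 8 h. The 1 h library was the highest and the 8 h library the lowest, and replicate 1 was below replicate 2, opposite in order to Syt4. The 8 h ratio was 0.815 (95% interval 0.792 to 0.838).

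Syt12 read 30.6 normalized CPM in the control, 33.2 at 1 h, 34.4 and 54.5 in 4 h replicates 1 and 2 and 64.6 at 8 h. Replicate 2 and the 8 h library were high, and replicate 1 was near the control and 1 h values. The ratio to the control was 1.12 in replicate 1 (95% interval 1.00 to 1.26), 1.78 in replicate 2 (1.61 to 1.97) and 2.11 at 8 h (1.91 to 2.33). The log2 fold change was 0.54 at 4 h (SE 0.32) and 1.08 at 8 h (SE 0.36), with an unadjusted p of 0.0277 at 8 h and an edgeR adjusted p of 1.00 (Benjamini-Hochberg). The 4 h value was 0.83 without replicate 1 and 0.17 without replicate 2. Cell type markers also differed: at 8 h C1ql2 was at 1.98 of the control, Neurod2 at 1.97 and Gfap at 2.66, while Calb1 was at 0.594. Other members of these lists did not all follow. The other excitatory markers lay below the control at 8 h, with log2 fold changes of -0.47 for Neurod6, -0.60 for Tbr1 and -0.15 for Slc17a7 and Camk2a. Among astrocyte markers Aqp4 was at -0.05, Aldh1l1 at 0.06 and Slc1a3 at 0.18. Among dentate markers Prox1 was at 0.36 and Dsp at -0.08. In the 4 h pair Neurod2 (ratios 0.611 and 1.08) and Ttr (0.00436 and 1.06) were uneven in the same order as Syt12. The part of these differences in the Syt12 values was not tested. On the other strand A930001C03Rik covers 17.2% of the Syt12 exons, and it had at most 5 counts in a library.

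Syt17 read 56.4 normalized CPM in the control, 33.6 at 1 h, 31.7 and 38.2 in the 4 h pair and 47.0 by 8 h. Every kainic acid library was below the control, the 1 h and 4 h libraries most and the 8 h library least. The ratio was 0.595 at 1 h (95% interval 0.538 to 0.658), 0.561 and 0.678 in the 4 h pair and 0.833 by 8 h (0.761 to 0.912). The log2 fold change was -0.75 at 1 h (SE 0.25) and -0.69 at 4 h (SE 0.21), with unadjusted p of 0.0274 and 0.0195 and edgeR adjusted p of 1.00 and 0.358 (Benjamini-Hochberg).

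**Figure D3:**
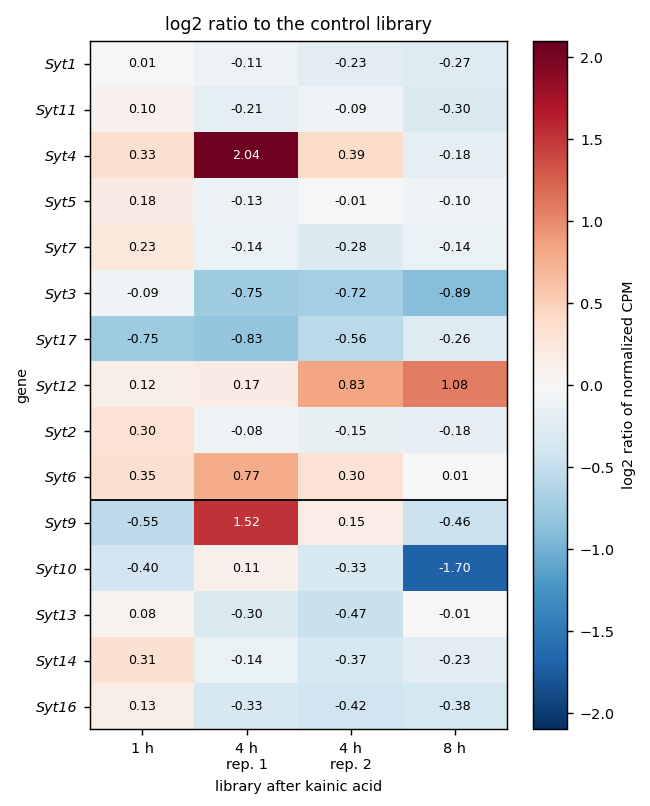
Log2 ratio of normalized CPM to the control library (color scale and printed values) for the 10 synaptotagmins, ordered by control level per kb above the line, and the 5 other synaptotagmins that passed the filter, in the 4 kainic acid libraries (x axis). Syt3 ranges from -0.72 to -0.89 at 4 and 8 h, Syt17 is lowest in 4 h replicate 1 with -0.83, and Syt12 reaches 1.08 at 8 h.

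Shares of the 10 genes' summed counts do not depend on how libraries are scaled. Syt1 held 51.2% in the control, 49.1% at 1 h, 42.8% and 48.1% in the 4 h pair and 50.0% by 8 h, and Syt11 held 23.6%, 24.0%, 18.4%, 24.4% and 22.6%. The Syt4 share was 6.54% in the control (exact Clopper-Pearson 95% interval 6.33 to 6.76), 7.83% at 1 h (7.59 to 8.07), 24.3% and 9.43% in the 4 h pair (23.9 to 24.7 and 9.16 to 9.71) and 6.78% by 8 h (6.53 to 7.03). It exceeded the control share in all 4 kainic acid libraries, though at 8 h the intervals overlapped. Syt3 went from 2.0% in the control to 1.07% and 1.34% in the 4 h pair and 1.27% by 8 h, and Syt12 from 1.19% to 1.21%, 2.34% and 2.96%. Shares sum to a fixed whole, so the large Syt4 share in replicate 1 lowers those of all other members there, Syt1, Syt11 and Syt3 included. Together the 10 genes read 2568 normalized CPM in the control, 2700 at 1 h, 2843 and 2332 in the 4 h pair and 2185 by 8 h.

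**Figure D4:**
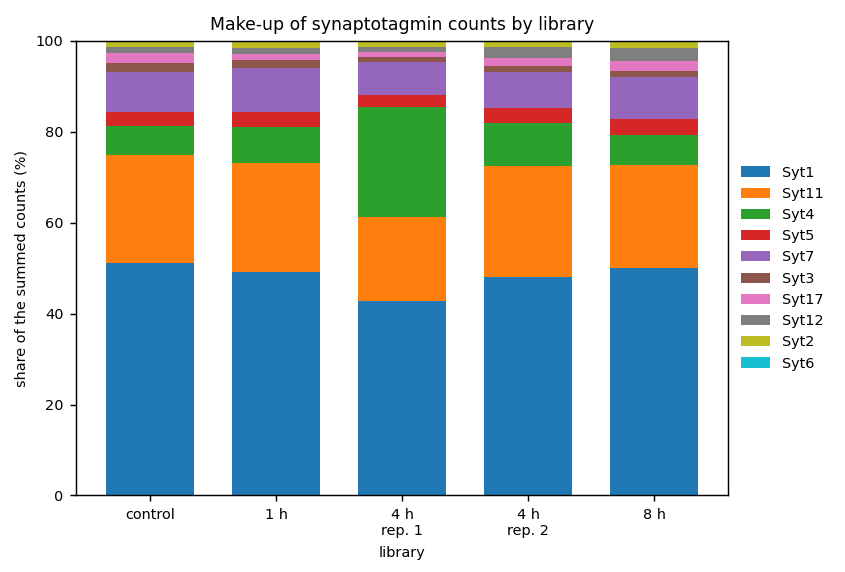
Share of the summed counts (y axis, percent) held by each of the 10 synaptotagmins in the 5 libraries (x axis, stacked bars). Syt4 takes 24.3% in 4 h replicate 1 and between 6.54% and 9.43% in the other libraries.

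Of the other 7 synaptotagmins, 5 passed the filter. Syt8, with 0 or 1 counts a library, and Syt15, with 4 to 9, did not. Syt9, like Syt4, was highest in 4 h replicate 1, with 5.33 normalized CPM in the control, 3.64 at 1 h, 15.3 and 5.92 in the 4 h pair and 3.88 by 8 h, and the same marker differences stand beside it, their part not tested. Syt10 read 10.4 in the control, 7.91 at 1 h, 11.2 and 8.25 in the 4 h pair and 3.19 by 8 h, where its ratio was 0.307 (95% interval 0.224 to 0.414; unadjusted p = 0.00743, edgeR adjusted p = 0.895 after Benjamini-Hochberg adjustment). Syt13, Syt14 and Syt16 had log2 fold changes of -0.38, -0.25 and -0.37 at 4 h. At the 1.5-fold limit, 0 of the 5 were past it at 1 h and 4 h, against 10.6% and 9.8% of all genes higher and 8.82% and 6.23% lower. At 8 h 1, Syt10, was lower, against 8.69%, and 0 were higher, against 13.9%.

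For genes that work with synaptotagmins, the counts below stand against 10.6% of all genes higher and 8.82% lower at 1 h, 9.8% and 6.23% at 4 h, and 13.9% and 8.69% by 8 h. Of 25 SNARE and release machinery genes, 0 passed the 1.5-fold limit at 1 h and 4 h and 3 were lower at 8 h, with median log2 fold changes of 0.02, 0.03 and -0.30. Their largest 4 h values were those of the complexins Cplx3 (-0.68) and Cplx2 (-0.43) and of Rims3 (0.47) and Rims2 (0.42). The log2 ratio to the control was -0.40 in replicate 1 and -1.07 in replicate 2 for Cplx3, and -0.60 and -0.28 for Cplx2, below the control in both but uneven. The Rims values rested on replicate 1: the ratio to the control was 1.86 there and 0.921 in replicate 2 for Rims3, on the other side of the control, and 1.62 and 1.05 for Rims2. Of 13 synaptic vesicle proteins, 0 passed at 1 h and 4 h, and at 8 h 2 were higher and 1 lower, with medians of 0.00, -0.14 and -0.23. Sv2c read 21.6 normalized CPM in the control, 31.2 and 29.4 in the 4 h pair and 78.4 by 8 h. Among 12 related C2 domain genes, 2 were lower in each comparison and 1 was higher at 8 h. The lower genes were Esyt3 each time, with Sytl1 at 1 h, Sytl2 at 4 h and Sytl4 at 8 h, and the higher gene was Sytl3. All of these but Sytl2 had at most 36 counts in a library. Sytl2 read 41.3 in the control, 42.3 at 1 h, 20.3 and 25.1 in the 4 h pair and 29.9 by 8 h. The activity-induced reference genes were higher by the limit in 8 of 8 cases at 1 h, 5 in the 4 h pair and 3 by 8 h, when 2 were lower, with medians of 3.97, 3.59 and 0.44.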

How the data were processed

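Libraries were made by the submitters with a stranded total RNA kit, and their processing notes name STAR 2.5.1b, HTSeq and GRCm38.p4. The deposited values were read counts per gene, not normalized. Reads on no gene (24.7% in the control and up to 33.1%) were left out. Genes were filtered with filterByExpr, scaled by TMM and tested with edgeR 4.0.16 in R 4.3.3 over 19768 genes, with 1 residual degree of freedom and a prior count of 2. Tested on simulated counts, the fit recovered the simulated folds. False calls exceeded the nominal rate when each gene had its own dispersion; a second simulation with dispersions from the trend was added after this was seen and gave fewer. Adjusted p-values from this fit may therefore be too small. Large changes can still go uncalled, as those of the activity-induced reference genes did. Poisson, binomial and Clopper-Pearson 95% intervals cover counting error only. In the 1.5-fold counts, counts under 3 were set to 3. Exon lengths came from GENCODE M21. The members and lists were chosen with earlier results of these data known. All synaptotagmins were named. Of each list, up to 4 genes with the largest absolute log2 fold change at 4 h were named, among those with 5 normalized CPM in a library. The 5 genes most like Syt4 were taken from those with 10 normalized CPM or more in any library. Alternatives were RLE, upper-quartile or no scaling factors, other filters, DESeq2 1.42.0, limma 3.58.1, a prior count of 0.125, fold limits of 1.25 and 2, each 4 h library left out, transcript length and the share without Syt1.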

Additional observations from a re-analysis of the deposited data

Results flagged for a closer look

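Several synaptotagmins had every library of one time point above the control and every library of another below it. None of these differences between time points was tested. For Syt1 at 1 h the 95% interval of the ratio from the counts alone included 1 (0.991 to 1.03). So did those of Syt2 in both 4 h libraries and of Syt5 in 4 h replicate 2 (0.922 to 1.06) and at 8 h (0.868 to 1.01). The log2 ratio to the control at 4 h minus that at 1 h was -0.18 for Syt1, -0.42 for Syt2, -0.25 for Syt5, -0.44 for Syt7 and -0.25 for Syt11. At 8 h minus 1 h it was -0.28 for Syt1, -0.48 for Syt2, -0.51 for Syt4, -0.28 for Syt5, -0.37 for Syt7 and -0.39 for Syt11. For Syt4 the value at 8 h minus that at 4 h was -1.40. It was -0.57 without 4 h replicate 1 and -2.22 without replicate 2, alternatives chosen after seeing the data. The Syt1 values at 1 h, 0.01 above the control, changed sign with library size scaling.

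Reads that HTSeq placed on no gene lie outside the counts compared. Their share was above the control's 24.7% in all 4 kainic acid libraries, with 29.0% at 1 h, 33.1% and 25.3% in the 4 h pair and 30.9% by 8 h.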

How the results depend on the processing

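Of 260 alternative member fold changes, 240 had a test: 234 kept their direction and their side of the threshold, 3 reversed and 3 passed it. The other 20, with a 4 h library left out, had no test and 0 changed sign. Syt1 at 1 h reversed with library size alone (-0.0605) and with upper-quartile factors (-0.0147), and Syt6 at 8 h without the filter (-0.00078). Without the filter, 2 members were called at 4 h (Syt4, edgeR Benjamini-Hochberg adjusted p = 5.52e-10; Syt3, 0.0494) and 1 at 8 h (Syt12, 0.0225); over the alternatives their adjusted p ran up to 1.00, 0.574 and 1.00. The cause was not tested.

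Genes called at 1 h numbered 57 with library size alone, 1 with upper-quartile factors, 285 without the filter, 1 with at least 10 counts in every library and 56 with DESeq2. At 4 h they numbered 0 with RLE, the 10-count filter or limma, 237 with library size alone, 1300 without the filter and 238 with DESeq2, and at 8 h 22, 279 and 33 with library size alone, no filter and DESeq2. Library size alone moved the median of all genes at 4 h to -0.11, and the share of 1.5-fold genes that were higher from 61.1% to 47.1%, and at 1 h from 54.5% to 46.2%; the cause of these changes was not tested.

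At the looser fold limit, 2 members were higher at 1 h (17.8% of all genes), and at 4 h 1 was higher (17.8%) and 2 lower (15.2%). At a limit of 2, 0 were lower at any time, against 3.39%, 1.48% and 3.18% of all genes at 1, 4 and 8 h. By the same limit 0 were higher at 1 h and 4 h, against 4.95% and 4.54%, and 1 (Syt12) was higher at 8 h, against 6.5%. With library size alone, 2 were lower at 4 h (9.03%). Leaving out a 4 h replicate gave 1 to 2 members higher (13.5% and 20.97% of all genes) and 1 to 2 lower (10.5% and 16.5%) at 4 h. Transcript length moved control levels per kb by 1.73-fold for Syt1, 1.76-fold for Syt17 and 1.55-fold for Syt12. With Syt1 out of the denominator, the Syt4 share was 13.4% in the control, 15.4% at 1 h, 42.4% and 18.2% in the 4 h pair and 13.6% by 8 h, as a smaller denominator gives. No paired analysis was possible because only the 4 h group had more than 1 library. Single control, 1 h and 8 h libraries and 1 residual degree of freedom limit every comparison.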
